A study of Hyacinthus orientalis with 189 samples.

Results

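The MYB transcription factors expressed in the perianth of hyacinth (*Hyacinthus orientalis*) were described across 7 cultivars, 3 developmental stages and 3 perianth partitions. A unigene (the longest assembled transcript of a cluster of similar transcripts) was taken as a member when the name of its best Swiss-Prot match contained the words "Transcription factor MYB", "Transcription repressor MYB" or "Myb-related protein", and when its mean over all libraries was at least 1 FPKM (fragments mapped per kilobase of transcript, scaled to the mapped fragments of the library). The words were found in 278 of the 494326 unigenes, and 127 of these reached the mean of 1 FPKM. The other 151 were below it and are not described. The mean level chose the members, so the levels of the members as such are a description.

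The tissue was the perianth of single flowers, from which stamens and pistil had been removed, and each flower gave 1 library of the perianth tube, 1 of the outer lobes and 1 of the inner lobes. There were 63 flowers, 3 for each of the 21 combinations of cultivar and stage. The cultivars were 'Jan Bos' (red), 'Pink Pearl' (pink), 'Gipsy Queen' (orange), 'City of Haarlem' (yellow), 'China Pink' (pinkish white), 'Delft Blue' (blue) and 'Peter Stuyvesant' (dark purple), and by the study's account 'China Pink' arose as a sport of 'Delft Blue'. The stages were Stage B, green flower buds, Stage C, coloured flower buds, and Stage A, flowers in full anthesis. Each cultivar is a clonally grown line and differs from the others in far more than flower colour, and these cannot be told apart here.

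MYB proteins bind DNA through imperfect repeats of a helix-turn-helix fold. The largest plant class, R2R3, carries repeats R2 and R3, and its subgroups have kept related roles in many flowering plants. In Arabidopsis, Petunia and Antirrhinum, 1 subgroup turns on the late anthocyanin genes in a complex with a bHLH protein and a WD40 protein. Another activates the flavonol branch without that complex. Yet another, with a repression motif at its C-terminus, restrains phenylpropanoid and anthocyanin genes. Other subgroups govern conical epidermal cells and cuticle, petal expansion and scent, stress responses, cell walls, anthers and pollen tubes. Further families have a single repeat, 3 repeats (the 3R type, which acts at the G2/M step of the cell cycle) or a MYB-like domain called GARP.

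The 127 members had 46 different names among their Swiss-Prot matches and were sorted by these names into 13 groups of roles. The roles are those of the named protein in its own species and were not measured in hyacinth. Between members, levels were compared per length, as FPKM. The median of the members' mean levels was 4.12 FPKM, 38 members were at 10 FPKM or more and 69 were under 5 FPKM. At every stage 83 members averaged at least 1 FPKM, and 91 did so in every cultivar. The members just inside the limit were a unigene matched to MYB97 (Cluster-20417.304190, 1.03 FPKM), 1 matched to Myb-related protein 2 (Cluster-20417.220554, 1.04 FPKM) and 1 matched to the maize protein P (Cluster-20417.381922, 1.07 FPKM). Just outside were unigenes matched to MYB44 (0.991 FPKM), MYB117 (0.979 FPKM) and MYB93 (0.975 FPKM).

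Member unigenes were 321 to 3378 bases long, and 27 of them were shorter than 600 bases and cannot hold a whole R2R3 gene with its untranslated ends. The FPKM of a short unigene is raised by its short effective length, and several unigenes with the same name may be pieces, alleles or close copies of one gene, among which the counting of reads is uncertain. Counts that bear on single cultivars are affected by this too, since a unigene at 0 in a cultivar can be a sequence variant that the cultivar lacks. These are bulk samples, in which fewer cells of a type and less RNA per cell cannot be told apart.

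The libraries held 12602472 to 20175882 counts (median 13822438), and a member had a median of 78 counts per flower (0 to 6205 over the members). The flower 'Gipsy Queen' Stage A replicate 2 stood furthest from its group, with a mean correlation of 0.893 with the other flowers of the group over all unigenes, against a median of 0.956 over the 63 flowers. It set the lowest Stage A value of several anthocyanin-type unigenes below, such as 15.95 FPKM of Cluster-20417.247286. The lowest Stage A value of Cluster-20417.123972 (MYB5) and the highest of Cluster-20417.262296 (Myb-related protein 308) were also from this flower. It is not named at each of these values. Of the marker lists, the class B MADS genes, which specify petaloid organs, summed to 146 to 265 FPKM per flower at Stage B, 3.95 to 264 FPKM at Stage C and 1.44 to 12.6 FPKM at Stage A, so they mark the perianth mainly in buds. The 22 unigenes with stamen, tapetum or pollen names all had counts in some library and summed to 24.7 to 184 FPKM at Stage B, 23.1 to 60.9 FPKM at Stage C and 25.7 to 127 FPKM at Stage A. The 86 unigenes for chlorophyll-binding proteins had a median sum of 85309 FPKM in outer lobes at Stage B, 3168 FPKM at Stage C and 985 FPKM at Stage A. The part of green tissue in the differences between stages was not tested.

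The first question of the design is how expression changes as the bud colours and opens. MYB unigenes of the anthocyanin, repressor and petal maturation groups were mostly higher after the green bud, and those of the epidermis group and of the MYB44 group were mostly lower. A unigene was called different when edgeR's quasi-likelihood test over 63 flowers gave a Benjamini–Hochberg adjusted p under 0.05 over the 202250 unigenes tested and the absolute log2 fold change was over 1. All 127 members were tested. In Stage C against Stage B, 70 members were called, which is 55.1% of them, against 22.5% of all unigenes tested and 27.3% of those with a mean of at least 1 FPKM. Of these members 40 were higher and 30 lower, against 7.7% of all unigenes called higher and 14.8% called lower. In Stage A against Stage B, 84 were called, 66.1% against 31.6% of all and 38.1% of those with a mean of at least 1 FPKM. They were 46 higher and 38 lower, against 13.5% and 18.0% of all. In Stage A against Stage C, 36 were called, 28.3% against 11.0% of all and 13.2% of those with a mean of at least 1 FPKM. They were 14 higher and 22 lower, against 6.64% and 4.38% of all. The comparisons with Stage B share its flowers.

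Where a group of cultivar and stage holds 0 counts, a mean over groups on the log scale has no finite value, and the test often gave a p close to 1. In Stage C against Stage B this p was over 0.99 for 67.4% of the 100016 unigenes with such a group, and for 3 of the 14 such members, of which 8 were called. Counts were present in each of the 21 groups for 113 members and for 102234 unigenes. Among these, 54.9% of members and 28.6% of unigenes were called in Stage C against Stage B, 64.6% and 38.6% in Stage A against Stage B, and 27.4% and 12.7% in Stage A against Stage C.

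The direction depends in part on scaling. The TMM factors, which set the effective library sizes, averaged 1.31 over green buds, 0.927 over coloured buds and 0.832 over open flowers, so that a unigene with equal FPKM at both stages had a log2 fold change of 0.49 in Stage C against Stage B and 0.65 in Stage A against Stage B. The median log2 fold change of all unigenes tested was -0.23 in Stage C against Stage B and -0.27 in Stage A against Stage B. The split of 46 members higher and 38 lower in Stage A against Stage B was 34 and 54 with limma on log2(FPKM + 0.1), 23 and 48 on log2(FPKM + 1), and 41 and 43 with median-ratio size factors. For Stage C against Stage B the split was 32 and 44 with limma on log2(FPKM + 0.1) and 27 and 35 on log2(FPKM + 1). For Stage A against Stage C it was 10 and 29 on log2(FPKM + 0.1). No called member had the opposite sign under these settings. Relative to the median of all unigenes, 71 of the 127 members lay above it in Stage A against Stage B. The median of the members there was 0.017, and that of tested unigenes with a mean of at least 1 FPKM was 0.041.

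**Figure D1:**
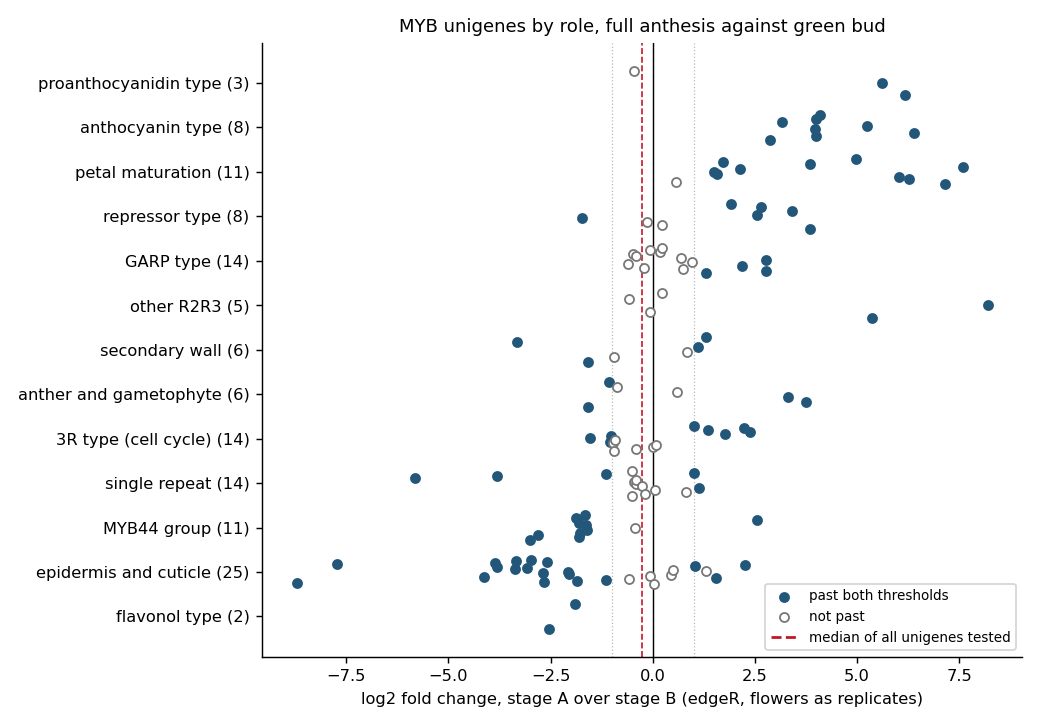
Log2 fold change of Stage A over Stage B (x axis, edgeR) of the 127 MYB unigenes, grouped by the role of the matched protein (rows), filled where called, with the median of all tested unigenes as a dashed line. All 8 anthocyanin-type points lie between 2.88 and 6.39, and 16 of the 25 points of the epidermis group are called lower, while the rightmost point, a MYB119 match, had 0 counts at Stage B and its place depends on the small count added in the fit.

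The 8 anthocyanin-type unigenes, matched to MYB113 or MYB114 of Arabidopsis, which switch on anthocyanin synthesis, all rose in Stage C against Stage B, against 7.7% of all unigenes called higher. The most abundant, Cluster-20417.247286 (MYB114, 841 bases), had 0.867, 29.6 and 84.0 FPKM as the lowest, median and highest of the 21 flowers at Stage B, 50.8, 178 and 410 FPKM at Stage C and 15.9, 116 and 407 FPKM at Stage A. A flower's FPKM is here the mean of its 3 partitions. Of the Stage C flowers only those of 'City of Haarlem' and 1 of 'Peter Stuyvesant' lay within the range of Stage B. The log2 fold change was 3.57 ± 0.22 (standard error, adjusted p = 1.38e-19) in Stage C against Stage B and 3.17 ± 0.22 (adjusted p = 3.61e-18) in Stage A against Stage B, while Stage A against Stage C gave -0.40 ± 0.20 (adjusted p = 0.148).

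Cluster-20417.182475 (MYB113, 606 bases) was nearly silent in green buds. It had 0.0800, 2.15 and 14.1 FPKM (lowest, median, highest) at Stage B, 13.7, 75.3 and 335 FPKM at Stage C and 8.23, 54.8 and 357 FPKM at Stage A. Only 1 Stage C flower, of 'Peter Stuyvesant', and 1 Stage A flower each of 'Pink Pearl', 'Gipsy Queen' and 'City of Haarlem' lay within the Stage B range, whose top was set by 'China Pink'. Its log2 fold change was 5.65 ± 0.22 in Stage C against Stage B (adjusted p = 8.98e-28) and 5.24 ± 0.22 in Stage A against Stage B (adjusted p = 4.37e-27).

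Cluster-20417.249409 (MYB113, 1927 bases) had 0.583, 5.81 and 13.9 FPKM at Stage B, 26.6, 103 and 167 FPKM at Stage C and 13.1, 66.4 and 91.7 FPKM at Stage A. The Stage C and Stage B flowers did not overlap, and the log2 fold change was 4.67 ± 0.18 (adjusted p = 2.24e-27). Cluster-20417.250369 (MYB114, 2017 bases) had 0.297, 2.87 and 5.26 FPKM at Stage B, 9.95, 33.6 and 63.7 FPKM at Stage C and 4.09, 19.7 and 47.9 FPKM at Stage A, again without overlap between Stage C and Stage B, with a log2 fold change of 4.60 ± 0.19. The other 4 unigenes of the group rose by 3.02 to 4.89 on the log2 scale in Stage C against Stage B. One of them, Cluster-20417.133918 (MYB114), named after its values were seen, was the only one of the 8 also called higher in Stage A against Stage C (1.50 ± 0.23, adjusted p = 6.63e-07).

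**Figure D2:**
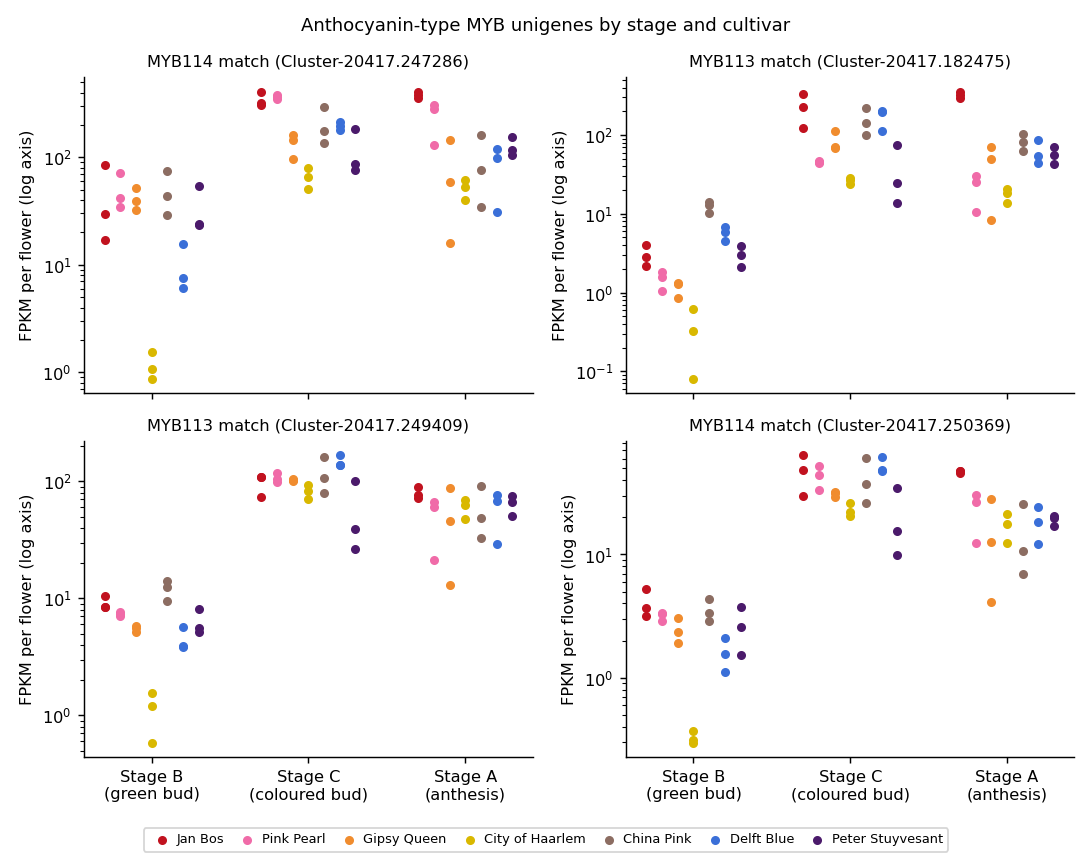
FPKM (log axis) of 4 anthocyanin-type MYB unigenes in each of 63 flowers at Stages B, C and A (x axis), coloured by cultivar. Cluster-20417.249409 and Cluster-20417.250369 do not overlap between Stage C and Stage B, and the 'City of Haarlem' flowers lie low in Cluster-20417.247286 at all stages.

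The summed FPKM of the 8 anthocyanin-type unigenes showed how cultivars compare at the time of colouring. At Stage C it was 769, 959 and 563 FPKM in the flowers of 'Jan Bos', 633, 601 and 571 FPKM in 'Pink Pearl', and 672, 513 and 629 FPKM in 'Delft Blue'. 'China Pink' had 791, 371 and 501 FPKM and 'Gipsy Queen' 397, 382 and 409 FPKM, while 'City of Haarlem' had 221, 224 and 174 FPKM and 'Peter Stuyvesant' 175, 135 and 415 FPKM. The red, pink, blue and pinkish white cultivars had the highest means. Neighbouring cultivars in this order overlapped among their 3 flowers except 'Gipsy Queen' and 'City of Haarlem'. At Stage B 'City of Haarlem' had 4.28, 1.83 and 3.40 FPKM, below each flower of the other cultivars, of which the lowest was 'Delft Blue' with 16.7 FPKM. At Stage A 'Jan Bos' had 864, 978 and 864 FPKM, above each flower of the other 6 cultivars, of which the highest was 471 FPKM in 'Pink Pearl'. In 'Peter Stuyvesant' the sum was then 284, 235 and 343 FPKM. It was 141, 284 and 303 FPKM in 'Delft Blue' and 177, 167 and 118 FPKM in 'City of Haarlem'.

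Some partners of such MYBs in the pigment complex rose in the same stages. Cluster-20417.299826, matched to basic helix-loop-helix protein A, had 0.643 FPKM at Stage B, 10.7 FPKM at Stage C and 8.60 FPKM at Stage A as medians of 21 flowers, and rose by 4.40 ± 0.25 on the log2 scale in Stage C against Stage B (adjusted p = 6.50e-21). Cluster-20417.246677, matched to the WD40 protein TRANSPARENT TESTA GLABRA 1, had medians of 18.9 FPKM, 31.1 FPKM and 28.1 FPKM and rose by 1.20 ± 0.09 (adjusted p = 2.72e-16). Of the 5 tested unigenes of the partner list, 3 rose and 0 fell in Stage C against Stage B. The shares of all unigenes were 7.7% and 14.8%. Equal FPKM at these stages gives a log2 fold change of 0.49, which is part of the rise of Cluster-20417.246677. The GLABRA 3 match (Cluster-20417.270990) had medians of 6.08, 5.58 and 5.86 FPKM at Stages B, C and A. An EGL1 match (Cluster-20417.260121) had 6.90, 8.79 and 8.18 FPKM. Of 83 tested unigenes for enzymes of flavonoid synthesis, 29 rose and 15 fell in Stage C against Stage B, against the same shares of all.

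The repressor group (8 unigenes, 3 of them under 600 bases) had 5 members higher and 0 lower in Stage C against Stage B, where 7.7% and 14.8% of all unigenes were called. In Stage A against Stage C 1 was higher and 3 were lower, against 6.64% and 4.38% of all. Cluster-20417.224081, matched to MYB6 of Arabidopsis, had 0, 0.880 and 23.4 FPKM (lowest, median, highest of 21 flowers) at Stage B, 0.653, 17.0 and 232 FPKM at Stage C and 0, 1.02 and 101 FPKM at Stage A. The ranges of the stages overlapped widely, and the cultivars stood far apart within each stage. The log2 fold change was 5.06 ± 0.39 in Stage C against Stage B (adjusted p = 1.49e-16) and -2.51 ± 0.34 in Stage A against Stage C (adjusted p = 3.03e-08). Cluster-20417.195293, matched to MYB3, a repressor of phenylpropanoid genes in Arabidopsis, had 0.253, 1.30 and 9.83 FPKM at Stage B, 2.77, 16.9 and 180 FPKM at Stage C and 0.140, 1.98 and 69.5 FPKM at Stage A. It rose by 4.36 ± 0.28 in Stage C against Stage B (adjusted p = 1.12e-18) and fell by 2.44 ± 0.26 in Stage A against Stage C (adjusted p = 1.04e-10), both on the log2 scale.

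Unigenes matched to Myb-related protein 308, which represses phenolic acid and lignin genes in Antirrhinum, did not move together. Cluster-20417.262296 (348 bases) had 12.9, 24.8 and 95.6 FPKM at Stage B, 107, 158 and 303 FPKM at Stage C and 117, 163 and 415 FPKM at Stage A, without overlap between Stage C and Stage B or between Stage A and Stage B. It rose by 3.42 ± 0.18 on the log2 scale in Stage A against Stage B (adjusted p = 7.05e-23). Cluster-20417.260538 (469 bases) followed with medians of 3.27, 24.6 and 29.0 FPKM at Stages B, C and A and a rise of 3.85 ± 0.19 (adjusted p = 4.81e-24). Cluster-20417.236005, named after its values were seen, had medians of 7.47, 4.86 and 1.30 FPKM and fell by 1.74 ± 0.18 (adjusted p = 3.61e-12) in Stage A against Stage B.

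The flavonol group moved the other way. Cluster-20417.243451, matched to MYB12, the activator of flavonol synthesis in Arabidopsis, had 20.5, 44.2 and 74.7 FPKM (lowest, median, highest) at Stage B, 0.330, 2.12 and 29.1 FPKM at Stage C and 0.0900, 2.69 and 36.0 FPKM at Stage A. At Stage C only 'Peter Stuyvesant' (20.98, 29.1 and 13.9 FPKM) and 'Jan Bos' (18.6, 21.96 and 17.1 FPKM) came near the green buds, with 'Pink Pearl' next (5.56, 10.5 and 11.5 FPKM). The log2 fold change was -3.11 ± 0.23 in Stage C against Stage B (adjusted p = 2.08e-16) and -2.53 ± 0.23 in Stage A against Stage B (adjusted p = 5.41e-14). The second member, Cluster-20417.381922, matched to P of maize, which controls red phlobaphenes and related flavonoids, had medians of 2.06, 0.330 and 0.447 FPKM at Stages B, C and A and also fell in both comparisons.

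MYB5 acts on proanthocyanidins and on seed coat and trichome cells in Arabidopsis. Its best match here, Cluster-20417.123972, had 0, 0.133 and 0.400 FPKM at Stage B, 2.03, 6.65 and 15.9 FPKM at Stage C and 0.620, 3.47 and 14.2 FPKM at Stage A. Each flower of Stages C and A lay above each flower of Stage B. The log2 fold change was 6.51 ± 0.32 in Stage C against Stage B (adjusted p = 4.29e-23). Cluster-20417.188152, also MYB5, had medians of 0.113, 4.33 and 3.64 FPKM at Stages B, C and A and rose by 5.90 ± 0.30 (adjusted p = 8.21e-23). Both had 0 counts in the 3 'City of Haarlem' flowers of Stage B, so these fitted values depend in part on the small count added in the fit. The remaining member of this group, matched to MYB14, is described with the cultivars.

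The group called petal maturation (11 unigenes) held 3 matches to MYB21 of Arabidopsis and 1 to Antirrhinum Myb-related protein 340, both of flowers, but also 4 to rice MYB2 and 3 to MYB62, which are known for other roles. It had 10 members higher and 0 lower in Stage A against Stage B, against 13.5% of all unigenes called higher, and 8 higher in Stage A against Stage C, against 6.64%. Of the 10, 3 were matched to MYB62. Of these, Cluster-20417.288966 had partition medians, given with the tube below, that changed little between Stages B and A. Equal FPKM at these stages gives a log2 fold change of 0.65. At Stage A, flower 2 of 'Gipsy Queen' and of 'Pink Pearl' had 25.7 and 23.3 FPKM of it, and their other flowers 2.61 to 5.53 FPKM. Another 4 of the 10 were matched to MYB2, a stress-response factor in rice. Cluster-20417.159733 had 0, 0.143 and 0.530 FPKM at Stage B, 0, 4.11 and 13.9 FPKM at Stage C and 2.99, 12.7 and 26.7 FPKM at Stage A. Every Stage A flower was above every Stage B flower, and the log2 fold change was 7.16 ± 0.30 in Stage A against Stage B (adjusted p = 6.74e-29). Cluster-20417.135844 had medians of 0.270, 5.88 and 12.4 FPKM at Stages B, C and A and rose by 6.02 ± 0.26, and Cluster-20417.292314 had medians of 0.107, 5.18 and 13.3 FPKM and rose by 7.59 ± 0.34, a value that depends in part on the small count added in the fit, since 'Pink Pearl' had 0 counts of it at Stage B. These 3 unigenes rose once more in Stage A against Stage C, by 2.10 to 2.26 on the log2 scale.

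Cluster-20417.235651 was matched to Antirrhinum Myb-related protein 340, which activates phenylpropanoid genes in flowers, and at 160 FPKM on average it was the second most abundant member. At Stage B its flowers ran from 1.81 to 406 FPKM with a median of 84.5 FPKM, and flowers of 1 cultivar could stand at either end. 'Pink Pearl' had 351, 2.19 and 346 FPKM and 'China Pink' 84.5, 3.97 and 406 FPKM, whereas 'Delft Blue' had 2.74, 3.62 and 1.81 FPKM and 'Gipsy Queen' 372, 333 and 253 FPKM. At Stage C the range was 55.8 to 641 FPKM (median 116) and at Stage A 8.76 to 304.8 FPKM (median 149). The rise of 1.60 ± 0.40 on the log2 scale in Stage C against Stage B (adjusted p = 7.57e-04) came with ranges that overlapped widely.

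The epidermis and cuticle group (25 unigenes) had 16 members lower and 3 higher in Stage A against Stage B, against 18.0% of all unigenes called lower. Cluster-20417.221073, matched to MYB60, which acts in guard cells of Arabidopsis, had 9.73, 27.8 and 58.6 FPKM (lowest, median, highest) at Stage B, 0, 0.370 and 6.56 FPKM at Stage C and 0, 0.0667 and 0.743 FPKM at Stage A. No later flower reached the lowest Stage B flower, and the log2 fold change in Stage A against Stage B was -7.74 ± 0.31 (adjusted p = 4.09e-31). MYB60 matches did not all fall, since Cluster-20417.215359 had medians of 3.85, 16.8 and 8.70 FPKM at Stages B, C and A and was called higher in both comparisons with Stage B.

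Cluster-20417.259204, matched to MYB106, which shapes epidermal cells and cuticle in Arabidopsis, had 3.55, 9.52 and 19.5 FPKM at Stage B, 0.210, 0.883 and 11.7 FPKM at Stage C and 0.0867, 0.373 and 0.993 FPKM at Stage A, and fell by 3.86 ± 0.17 on the log2 scale in Stage A against Stage B (adjusted p = 3.84e-25). Cluster-20417.169143, matched to MYB17 of the same subgroup, had medians of 7.33, 0.683 and 0.150 FPKM and fell by 4.13 ± 0.18 (adjusted p = 4.25e-27). In the Stage C ranges of both, a few flowers stayed at the level of green buds, and these came from 'Peter Stuyvesant' and, for MYB17, also from 'City of Haarlem'.

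The MYB44 group, whose Arabidopsis members respond to abscisic acid, wounding and drought, held the most abundant member and had 9 of 11 unigenes lower in Stage A against Stage B, against 18.0% of all unigenes. Cluster-20417.219613 (MYB44, 329 bases) had 170, 586 and 1260 FPKM at Stage B, 73.0, 141 and 398 FPKM at Stage C and 43.3, 81.7 and 259 FPKM at Stage A, and its log2 fold change in Stage A against Stage B was -1.87 ± 0.21 (adjusted p = 3.38e-11). Cluster-20417.213451 had medians of 229, 36.3 and 46.4 FPKM and fell by 1.62 ± 0.23 (adjusted p = 1.94e-08), and Cluster-20417.237615 had medians of 204, 39.0 and 43.9 FPKM and fell by 1.64 ± 0.22 (adjusted p = 1.28e-08). For all 3, most Stage C and Stage A flowers lay below the lowest Stage B flower. In Cluster-20417.219613 exactly 1 Stage B flower of each cultivar lay within the Stage C range, and this was replicate 2 in 'Gipsy Queen' and replicate 1 in the other 6. The 1 riser of the group was matched to MYB1 (Cluster-20417.308131, named after its values were seen), with medians of 0.547, 2.67 and 2.05 FPKM.

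Among the remaining groups, 5 of 14 single-repeat unigenes were called in Stage A against Stage B, 2 higher and 3 lower, a share near that of all unigenes (31.6%). The steepest was Cluster-20417.247843, matched to rice MYBS3, a repressor in sugar signalling, with 3.52, 13.4 and 29.6 FPKM at Stage B, 0.123, 0.657 and 8.84 FPKM at Stage C and 0, 0.107 and 1.51 FPKM at Stage A. It fell by 5.83 ± 0.28 on the log2 scale in Stage A against Stage B (adjusted p = 2.30e-26), which likewise depends in part on the added count, with 0 counts in 'China Pink' at Stage A. Of the 14 GARP unigenes 8 rose and 0 fell in Stage C against Stage B, against 7.7% and 14.8% of all. Of the 8, 5 were matched to MYBC1. Of the 14 unigenes of the 3R type 4 rose and 1 fell in Stage C against Stage B, against the same shares. These counts depend in part on scaling, since equal FPKM at these stages gives a log2 fold change of 0.49. The median summed FPKM of the GARP group was 93.30 at Stage B and 110.8 at Stage C. That of the 3R group was lower at Stage C, at 45.49 against 54.04 FPKM at Stage B. In Stage A against Stage C 1 unigene of the 3R type rose and 5 fell, against 6.64% and 4.38% of all. The 5 that fell there were matched to MYB3R-4 or MYB3R-1, activators of G2/M genes in Arabidopsis, and their log2 fold changes were -1.63 to -1.03.

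A unigene matched to MYB119, a factor of the female gametophyte in Arabidopsis, was found only after the green bud and was chosen after its values were seen. Cluster-20417.116296 had 0 counts in all 21 flowers at Stage B, 0.213, 3.45 and 24.2 FPKM (lowest, median, highest) at Stage C and 0, 0.380 and 1.88 FPKM at Stage A. At Stage C it was highest in 'China Pink' (24.2, 1.98 and 8.49 FPKM) and 'Delft Blue' (15.8, 6.83 and 15.7 FPKM), and low in 'Gipsy Queen' (0.600, 0.213 and 0.373 FPKM) and 'City of Haarlem' (0.303, 0.460 and 0.637 FPKM). The tests among cultivars and of cultivar by stage, both affected by the groups at 0 counts, did not call this unigene.

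The second question is how the cultivars differ. Averaged over the stages, 85 members differed among the 7 cultivars by a range of means over 1 on the log2 scale (66.9% of members, against 71.6% of all unigenes tested and 62.5% of those with a mean of at least 1 FPKM), so their share was near the background. Against the mean of the other 6 cultivars, 24 members were called in 'Jan Bos', with 20 higher and 4 lower, and of all unigenes 23.5% were called (17.9% higher, 5.56% lower). In 'Pink Pearl' 10 were higher and 9 lower, with 19.7% of all called (14.2% and 5.5%), and in 'Gipsy Queen' 10 and 7, with 24.6% (16.8% and 7.78%). 'City of Haarlem' had the most, with 12 higher and 22 lower, and 26.8% of all called (20% and 6.81%). In 'China Pink' 10 were higher and 6 lower, with 22.5% (19.5% and 3.05%), in 'Delft Blue' 8 and 10, with 22.0% (19.8% and 2.2%), and in 'Peter Stuyvesant' 10 and 9, with 25.1% (19.7% and 5.41%). As shares of the 127 members the calls are 12.6% to 26.8%.

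Of the 14 members with a group at 0 counts, 4 were called in 'Jan Bos' and 7 in 'City of Haarlem', while 6 and 4 had a p over 0.99. Among the 113 members with counts in each group, 20 were called in 'Jan Bos' (17.7%, against 16.6% of the 102234 such unigenes) and 27 in 'City of Haarlem' (23.9% against 19.6%). The 20 in 'Jan Bos' were 16 higher and 4 lower, against 8342 and 8606 of such unigenes. The 27 in 'City of Haarlem' were 7 higher and 20 lower, against 9763 and 10317. The other 5 cultivars had 10.6% to 13.3% of these members called, against 11.4% to 19.6% of such unigenes. The split of higher and lower members moved with the test in several cultivars. With limma on log2(FPKM + 0.1) it was 15 and 6 in 'Jan Bos', 6 and 11 in 'Gipsy Queen' and 6 and 6 in 'China Pink', and DESeq2 gave 18 and 7 in 'Jan Bos' and 11 and 12 in 'Gipsy Queen'. These 7 comparisons share samples, since each cultivar is also part of the reference of the others.

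In the red 'Jan Bos', most of the called MYBs of the flavonoid groups were higher. Of the 8 anthocyanin-type unigenes 5 were higher and 0 lower, both flavonol-type unigenes were higher, both MYB5 matches were higher, and 3 repressor-type unigenes were higher and 1 lower, against 17.9% of all unigenes called higher and 5.56% called lower. The MYB14 match went the other way, with 4 counts in 'Jan Bos', against 3082 to 4710 in 4 of the other cultivars. The largest difference was in the MYB6 match, Cluster-20417.224081. At Stage C it had 158, 232 and 86.5 FPKM in 'Jan Bos', and 0.653, 11.7 and 66.7 FPKM as the lowest, median and highest of the 18 other flowers. At Stage A it had 44.4, 101 and 45.0 FPKM in 'Jan Bos', and 0, 0.898 and 14.4 FPKM in the others. The groups did not overlap at any stage, and the log2 fold change of 'Jan Bos' over the other cultivars was 4.75 ± 0.28 (adjusted p = 8.38e-21).

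The MYB3 match, Cluster-20417.195293, was set apart at Stage C. At Stage C it had 134, 180 and 82.5 FPKM in 'Jan Bos', and 2.77, 14.2 and 48.0 FPKM (lowest, median, highest) in the other 18 flowers. At Stage B it had 1.44, 1.12 and 9.83 FPKM in 'Jan Bos', of which the first pair lay within the range of the others. The log2 fold change was 3.29 ± 0.24 (adjusted p = 6.64e-17). Cluster-20417.249408 (MYB114, named after its values were seen) had 27.8, 31.9 and 28.8 FPKM at Stage A in 'Jan Bos', and 0.247, 1.71 and 4.02 FPKM in the others, a log2 fold change of 2.92 ± 0.19 (adjusted p = 7.99e-19). The abundant Cluster-20417.247286 had 379, 407 and 360 FPKM at Stage A in 'Jan Bos', and 15.9, 102 and 307 FPKM in the others, without overlap (1.52 ± 0.21, adjusted p = 1.67e-08). The MYB12 match differed by 2.08 ± 0.21 (adjusted p = 9.34e-12). Of the 83 flavonoid enzyme unigenes tested, 49 were higher and 3 lower in 'Jan Bos', against 17.9% and 5.56% of all unigenes.

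**Figure D3:**
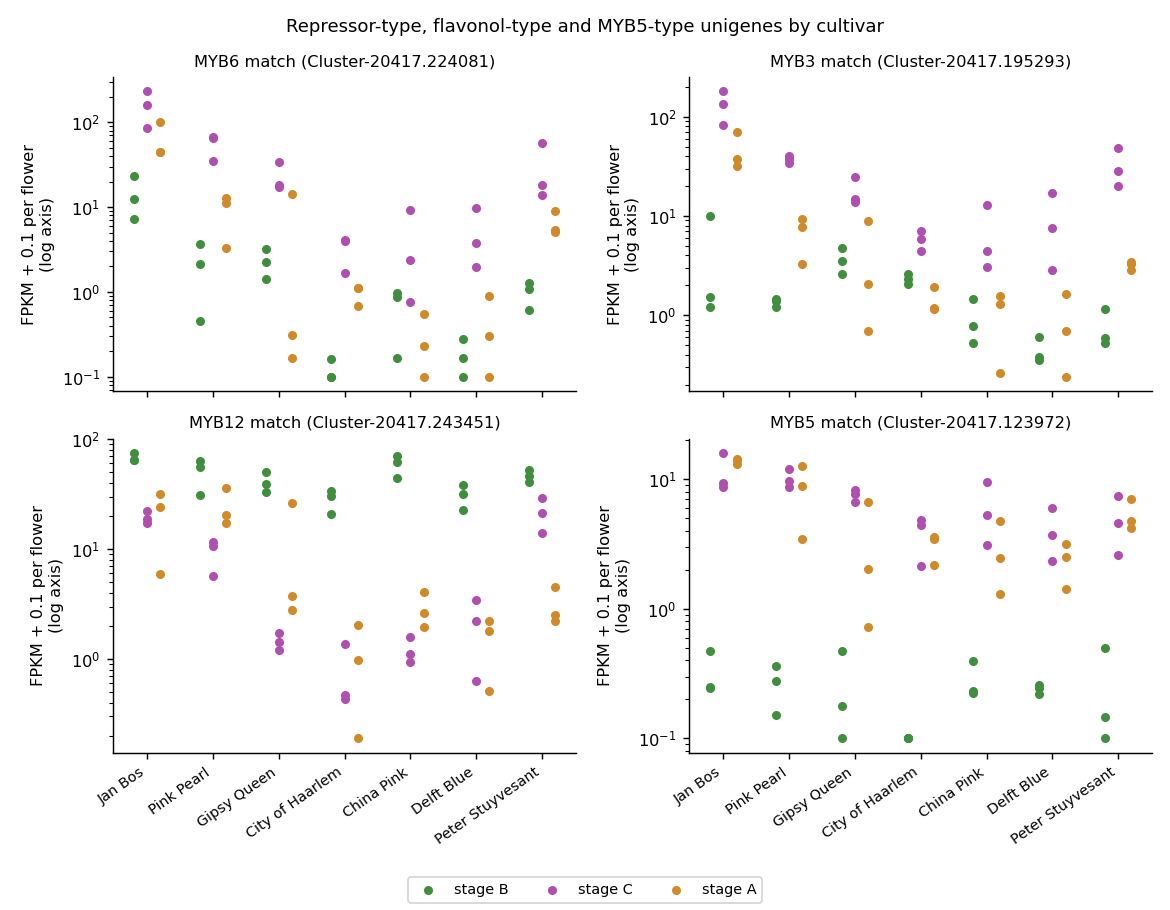
FPKM + 0.1 (log axis) of the MYB6, MYB3, MYB12 and MYB5 matches in each of 63 flowers by cultivar (x axis), coloured by stage. The 3 'Jan Bos' flowers of Stage C, at 158, 232 and 86.5 FPKM of MYB6, lie above each flower of the other cultivars.

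In the yellow 'City of Haarlem' the same groups were lower. Of the 8 anthocyanin-type unigenes 7 were lower and 0 higher, both flavonol-type unigenes and both MYB5 matches were lower, and 4 repressor-type unigenes were lower, against 6.81% of all unigenes called lower. Cluster-20417.247286 had 79.9, 64.9 and 50.8 FPKM at Stage C in 'City of Haarlem', and 76.6, 188 and 410 FPKM (lowest, median, highest) in the other 18 flowers. At Stage B it had 1.54, 0.867 and 1.06 FPKM in 'City of Haarlem', and 6.08, 33.3 and 84.0 FPKM in the others, so the groups did not overlap in green buds, and at Stage C 1 'City of Haarlem' flower lay above the lowest of the others. The log2 fold change was -2.68 ± 0.30 (adjusted p = 6.55e-11). For Cluster-20417.182475 it was -2.37 ± 0.28 (adjusted p = 4.58e-10), with 27.1, 28.7 and 23.9 FPKM at Stage C in 'City of Haarlem', and 13.7, 106 and 335 FPKM in the others. Of the 83 flavonoid enzyme unigenes tested, 14 were higher and 44 lower, against 20% and 6.81% of all.

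Other MYBs were higher in 'City of Haarlem', among them 7 of the 25 of the epidermis group, against 20% of all unigenes called higher. Of the 102234 unigenes with counts in each group, 9763 were called higher. Cluster-20417.334309, matched to MYB30, which acts on very-long-chain fatty acids and cell death in Arabidopsis, had 5.88, 5.44 and 6.64 FPKM at Stage B, 5.70, 7.33 and 7.58 FPKM at Stage C and 11.6, 10.97 and 10.4 FPKM at Stage A. The highest flower of any other cultivar had 1.10 FPKM. The log2 fold change was 4.39 ± 0.11 (adjusted p = 1.07e-35). The MYB17 match Cluster-20417.169143 had 3.10, 6.23 and 4.42 FPKM at Stage C in 'City of Haarlem', and 0.107, 0.605 and 3.72 FPKM in the others, and was higher by 2.11 ± 0.16 (adjusted p = 1.31e-16).

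A few unigenes were at or near 0 counts in whole cultivars. Cluster-20417.46808 (MYB60) had 0 counts in the 9 flowers each of 'Jan Bos', 'Pink Pearl', 'Gipsy Queen' and 'City of Haarlem', and 700 counts in 'China Pink', 938 in 'Delft Blue' and 1705 in 'Peter Stuyvesant'. Cluster-20417.115336 (MYB30) had 0 counts in 'Gipsy Queen' and 'City of Haarlem', 119 in 'Jan Bos', 404 in 'Peter Stuyvesant' and 1249 to 1573 in the other 3. Cluster-20417.333661 (MYB14) had 4 counts in 'Jan Bos', 2 in 'Gipsy Queen' and 119 in 'City of Haarlem', against 3082 to 4710 in the other 4. Whether the gene or only this sequence of it was lacking in those cultivars was not tested. Cluster-20417.127376, matched to a rice MYB30 and named after its values were seen, had 67 counts in 'City of Haarlem' and 5254 to 18292 in the other cultivars.

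'China Pink' and its source 'Delft Blue' were compared directly. By edgeR's quasi-likelihood test 0 of the 127 members were called, with 0.317% of all unigenes called, while 23 members had an unadjusted p under 0.05 and DESeq2 called 6. The 340 match Cluster-20417.235651 had 84.5, 3.97 and 406 FPKM at Stage B in 'China Pink', against 2.74, 3.62 and 1.81 FPKM in 'Delft Blue'. At Stage C it had 130, 245 and 182 FPKM in 'China Pink', against 66.7, 122 and 115 FPKM in 'Delft Blue', and at Stage A the 2 cultivars overlapped. Its log2 fold change was 2.37 ± 0.63, with an adjusted p of 0.0570. Cluster-20417.250373 (MYB114, named after its values were seen) had 0.743, 1.41 and 1.24 FPKM at Stage B in 'China Pink', against 0.147, 0 and 0 FPKM in 'Delft Blue', with a log2 fold change of 1.84 ± 0.48 and an adjusted p of 0.0559.

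The design also asks whether the stages differ in the same way in each cultivar. The test of cultivar by stage called 61 members (48.0%), against 23.3% of all unigenes and 41.4% of those with a mean of at least 1 FPKM. The count was 36, 39 and 30 members without replicate 1, 2 and 3. Cluster-20417.152150, matched to MYB3R-4, was highest at Stage C in 'Gipsy Queen', with 2.43, 2.34 and 1.90 FPKM at Stage B, 3.59, 3.08 and 5.61 FPKM at Stage C and 2.99, 1.83 and 2.75 FPKM at Stage A. The highest flower of the other cultivars had 3.99 FPKM at Stage B, 1.61 FPKM at Stage C and 1.09 FPKM at Stage A, so 'Gipsy Queen' stood apart only after the green bud (interaction adjusted p = 3.75e-07). Cluster-20417.185458 (MYB16, which shapes petal epidermal cells in Arabidopsis) had 9.20, 7.24 and 7.94 FPKM at Stage B and 6.59, 2.39 and 3.14 FPKM at Stage A in 'China Pink'. The 18 flowers of the other cultivars overlapped these, with 0.570 to 8.96 FPKM at Stage B and 0.0133 to 3.34 FPKM at Stage A. In 'Peter Stuyvesant' this unigene had 2.85, 1.91 and 2.37 FPKM at Stage B, 2.68, 3.29 and 1.76 FPKM at Stage C and 0.417, 0.457 and 0.473 FPKM at Stage A (interaction adjusted p = 7.72e-09).

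In 'Peter Stuyvesant' several MYBs of the green bud were still high in the coloured bud. The change in Stage C against Stage B differed from that in the other 6 cultivars for 23 members (16 more positive, 7 more negative), 18.1% against 3.84% of all unigenes, of which 2.56% were more positive and 1.29% more negative. Among those with counts in each group the shares were 18.6% of members and 5.77% of unigenes, and DESeq2 gave 18 more positive and 15 more negative members. The count was 13 without replicate 1, 10 without replicate 2 and 22 without replicate 3. Of the 25 members of the epidermis group 10 were more positive and 1 more negative. MYB106 (Cluster-20417.259204) had 10.6, 11.7 and 3.55 FPKM at Stage C in 'Peter Stuyvesant', and 0.210, 0.735 and 1.70 FPKM (lowest, median, highest) in the other 18 flowers. At Stage B it had 10.7, 11.7 and 12.2 FPKM in 'Peter Stuyvesant', within the range of the others. The difference of the log2 fold changes was 3.03 ± 0.41 (adjusted p = 2.17e-06).

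MYBS3 (Cluster-20417.247843) had 4.89, 8.84 and 3.40 FPKM at Stage C in 'Peter Stuyvesant', and 0.123, 0.510 and 1.22 FPKM in the others, again without overlap, a difference of 3.51 ± 0.51 (adjusted p = 3.64e-06). MYB60 (Cluster-20417.221073) had 6.56, 4.56 and 2.81 FPKM, and 0, 0.288 and 1.91 FPKM in the others (2.61 ± 0.59, adjusted p = 0.00321). MYB17 (Cluster-20417.169143) had 3.72, 3.70 and 2.09 FPKM, within the range of the others, which 'City of Haarlem' set (1.73 ± 0.38, adjusted p = 0.0025). MYB12 (Cluster-20417.243451) had 20.98, 29.1 and 13.9 FPKM, and 0.330 to 21.96 FPKM in the others (2.67 ± 0.63, adjusted p = 0.00553). The calls of MYB60, MYB17 and MYB12 were lost without replicate 2.

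Other members were lower in coloured buds of 'Peter Stuyvesant' than in those of the other cultivars. MYB2 (Cluster-20417.135844) had 0, 0.223 and 0.0700 FPKM at Stage C in 'Peter Stuyvesant', and 1.02, 6.28 and 16.7 FPKM in the others, but 15.0, 8.44 and 12.4 FPKM at Stage A, within the range of the others. The difference was -5.61 ± 1.55 (adjusted p = 0.0204) and lost its call without replicate 2 or 3. MYB113 (Cluster-20417.182475) had 24.6, 13.7 and 75.3 FPKM, and 23.9, 106 and 335 FPKM in the others (-1.88 ± 0.55, adjusted p = 0.0353), and lost its call without replicate 1 or 2 and with no filter on low counts. The 86 chlorophyll-binding unigenes summed to 16666, 25206 and 6132 FPKM at Stage C in 'Peter Stuyvesant', and 751 to 7158 FPKM in the other flowers, and the 8 class B MADS unigenes to 154, 264 and 48.4 FPKM, and 3.95 to 85.6 FPKM in the others. The part of greener bud tissue in these differences was not tested.

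**Figure D4:**
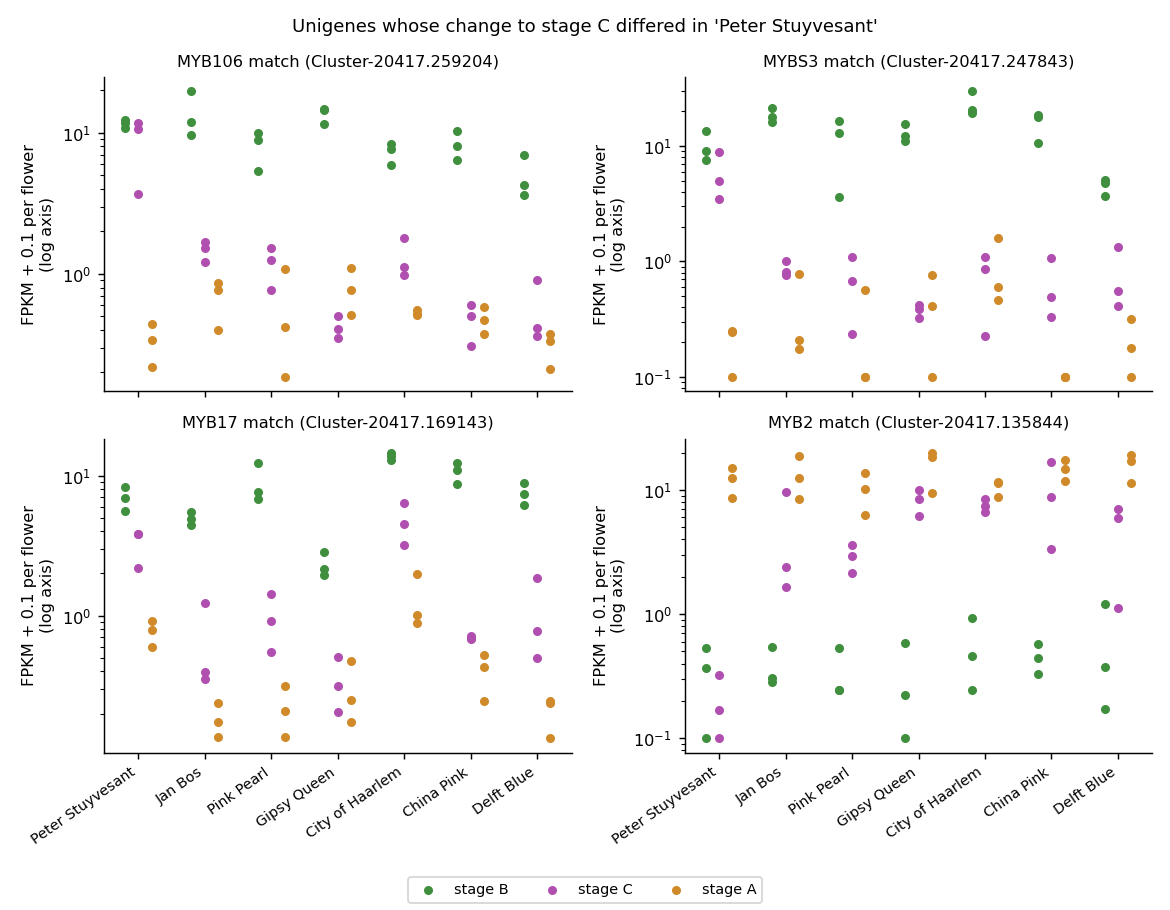
FPKM + 0.1 (log axis) of the MYB106, MYBS3, MYB17 and MYB2 matches in each of 63 flowers by cultivar (x axis), with 'Peter Stuyvesant' leftmost and the stages coloured. At Stage C its flowers have 10.6, 11.7 and 3.55 FPKM of MYB106, above each Stage C flower of the other cultivars, and at most 0.223 FPKM of MYB2.

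The last question is how the parts of the perianth differ. Libraries of the tube were compared with the mean of the outer and inner lobes within flowers, stage by stage. At Stage B 16 of 118 members tested were called, 13.6% against 4.6% of all unigenes. Of these 8 were higher in the tube and 8 lower, against 2.46% and 2.14% of all. At Stage C 29 of 121 were called, 24.0% against 7.41%, with 18 higher and 11 lower, against 4.06% and 3.35%. At Stage A 28 of 120 were called, 23.3% against 12.6%, with 18 higher and 10 lower, against 7.42% and 5.23%. With limma on log2(FPKM + 0.1) the split at Stage C was 21 and 7. At all 3 stages 5 members were higher in the tube and 0 were lower. The like share of all unigenes was not counted, so this number is a description. For the tube, the shares among unigenes with a mean of at least 1 FPKM are not given.

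MYB62 (Cluster-20417.288966), a regulator of phosphate starvation and gibberellin responses in Arabidopsis, had 0.570, 8.11 and 28.4 FPKM (lowest, median, highest) in 21 tubes at Stage B, against medians of 1.21 FPKM in outer and 1.05 FPKM in inner lobes. At Stage C the medians were 3.50 FPKM in the tube, 0.50 FPKM in outer and 0.360 FPKM in inner lobes, and at Stage A 9.11, 1.14 and 1.37 FPKM. The tube was above the lobes in 21, 20 and 20 of 21 flowers at Stages B, C and A, although the ranges overlapped between flowers. The log2 fold change was 2.39 ± 0.13 at Stage B (adjusted p = 2.49e-25), 2.37 ± 0.16 at Stage C and 2.88 ± 0.18 at Stage A.

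Among the other members higher in the tube were matches to pollen tube factors. MYB101 (Cluster-20417.255167) had medians of 6.23 FPKM in the tube, 1.68 FPKM in outer and 2.51 FPKM in inner lobes at Stage B, and 2.36, 0.200 and 0.230 FPKM at Stage A. It was higher in the tube by 1.52 ± 0.09 at Stage B (adjusted p = 1.22e-22), 2.26 ± 0.15 at Stage C and 2.72 ± 0.19 at Stage A. MYB97 (Cluster-20417.304190) and MYB120 (Cluster-20417.137100, named after its values were seen) act with MYB101 in Arabidopsis pollen tubes and were higher by 1.93 to 3.28. Both rest on few reads. The MYB97 match had a mean of 0.231 FPKM at Stage B, and the MYB120 match had 11 to 355 counts per cultivar. The 22 unigenes with stamen, tapetum or pollen names summed to medians of 73.0 FPKM in the tube, 53.5 FPKM in outer and 49.95 FPKM in inner lobes at Stage B, 37.8, 34.7 and 34.9 FPKM at Stage C and 59.1, 43.4 and 40.0 FPKM at Stage A. Of these 22 unigenes, 10 had a mean of at least 1 FPKM. The part of remaining stamen tissue was not tested.

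Several MYBs of the flavonoid groups were lower in the tube at Stages C and A. MYB5 (Cluster-20417.123972) had medians of 3.25 FPKM in the tube, 8.23 FPKM in outer and 7.05 FPKM in inner lobes at Stage C, with the tube lower in 20 of 21 flowers (-1.47 ± 0.15, adjusted p = 1.40e-11). At Stage A it had 1.86, 4.56 and 4.78 FPKM, with the tube lower in 21 of 21 (-1.64 ± 0.12, adjusted p = 1.68e-16). MYB12 (Cluster-20417.243451) had 1.14, 2.87 and 2.51 FPKM at Stage C (-1.17 ± 0.14, adjusted p = 7.04e-10). The MYB6 and MYB3 matches were lower in the tube by 1.22 ± 0.17 and 1.38 ± 0.14 on the log2 scale at Stage C. Of the anthocyanin-type unigenes, Cluster-20417.182475 had medians of 37.8 FPKM in the tube, 53.7 FPKM in outer and 62.7 FPKM in inner lobes at Stage A, with the tube lower in 19 of 21 flowers, but its log2 fold change of -0.93 ± 0.09 did not reach the limit of 1 (adjusted p = 2.35e-12). It was called lower at Stage B (-1.04 ± 0.19, adjusted p = 1.80e-05). Named after their values were seen, Cluster-20417.218521 (MYB114) was called lower in the tube at Stage A (-1.15 ± 0.12), and Cluster-20417.250373 (MYB114) at Stage C (-1.02 ± 0.21). Cluster-20417.133918 (MYB114) was lower at Stage A (-1.42 ± 0.19) and higher at Stage B (1.36 ± 0.33), where its medians were 0.21 FPKM in the tube and 0.03 FPKM in each kind of lobe. All other values of the 8 at Stages C and A were below 0 without a call, except that of Cluster-20417.133918 at Stage C (0.24 ± 0.18). Of the 76 flavonoid enzyme unigenes tested, 2 were higher and 18 lower in the tube at Stage A, against 7.42% and 5.23% of all unigenes.

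**Figure D5:**
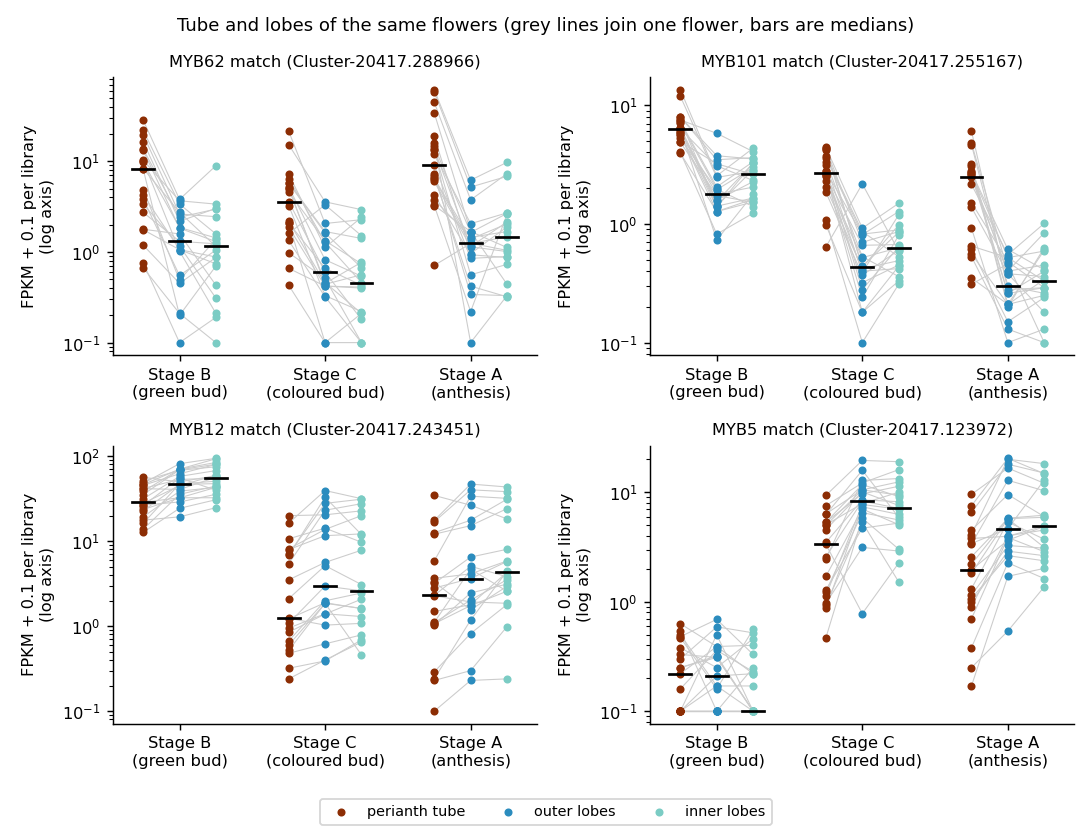
FPKM + 0.1 (log axis) of the MYB62, MYB101, MYB12 and MYB5 matches in tube, outer and inner lobes at each stage, with grey lines joining the libraries of a flower and bars at the medians. At Stage B the tube medians of MYB62 and MYB101 are 8.11 and 6.23 FPKM, above both kinds of lobe.

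Few members were called between outer and inner lobes. Outer against inner lobes gave 1 call among 118 members at Stage B (with 0.481% of all unigenes called), 4 of 121 at Stage C (0.305%, and 1 to 3 members when 1 replicate was left out) and 0 of 120 at Stage A (0.391%, with 13 members at an unadjusted p under 0.05). At Stage B MYB102 (Cluster-20417.157639), which responds to wounding in Arabidopsis and is named after its values were seen, had medians of 7.39 FPKM in outer and 1.90 FPKM in inner lobes and was higher in outer lobes in 18 of 21 flowers (1.17 ± 0.21, adjusted p = 1.62e-04). At Stage C the anthocyanin-type Cluster-20417.133918 had 2.89 FPKM in outer and 0.930 FPKM in inner lobes, higher in 19 of 21 flowers (1.73 ± 0.22, adjusted p = 5.86e-06). MYB60 (Cluster-20417.221073) was also higher in outer lobes there (1.80 ± 0.44), and MYB30 (Cluster-20417.204746) and MYB120 (Cluster-20417.137100) were lower.

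Unigenes whose Swiss-Prot names point to MYB proteins by other words were outside the rule. Of 52 such unigenes tested with a mean of at least 1 FPKM, 15 were higher and 16 lower in Stage C against Stage B. The shares of all unigenes were 7.7% and 14.8%. In Stage A against Stage B 16 were higher and 12 lower, against 13.5% and 18.0% of all.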

How the data were processed

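RNA-Seq libraries of the perianth partitions of 63 flowers were analysed. The authors sequenced poly-A RNA, assembled the reads de novo with Trinity, clustered transcripts with CORSET, took the longest transcript of a cluster as unigene, and counted reads with RSEM after Bowtie alignment. The deposited values were expected counts and FPKM per unigene and library, and RSEM divides reads between similar unigenes. Of the deposited expected counts, 3.849% were not whole, and they were rounded. No per-sample column was unused.

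Counts were summed over the 3 partitions of a flower, a unigene was kept when 3 or more flowers held 10 or more counts of it, and groups were compared with edgeR 4.0.16 (TMM, quasi-likelihood, R 4.3.3). Partitions were compared per stage with flower as a block. Flowers are the replicates. P-values were Benjamini–Hochberg adjusted over all unigenes tested, and calls also needed an absolute log2 fold change over 1 (only the adjusted p for the interaction). Alternatives used DESeq2 1.42.0, limma 3.58.1, other filters and left-out replicates. The scripts were tested on simulated data, in which 200 of 20000 unigenes were changed 3-fold. The edgeR fits recovered 84% of these in Stage A against Stage B and 86.5% for the tube at Stage A. For 'China Pink' against 'Delft Blue' it was 63.5%, so that comparison missed more. False calls were 2, 1 and 9 in this order. Named genes were the flavonoid-group members with a mean of at least 2 FPKM, the 6 most abundant, and those of smallest p in each comparison, and others are marked. The members, gene lists and tests were chosen with earlier results of these data known.

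Partitions of a flower deviated together from their group means (mean correlation 0.258), whereas flowers with the same replicate number in different groups did so little (0.020, and 0.119 within Stage B). No genome or sequence table was used here, so no sequences are shown.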

Additional observations from a re-analysis of the deposited data

Results flagged for a closer look

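The change between stages differed between cultivars, by the test of the interaction, for MYB16 (Cluster-20417.185458, adjusted p = 7.72e-09), MYB3R-4 (Cluster-20417.152150, adjusted p = 3.75e-07) and MYB106 (Cluster-20417.259204, adjusted p = 6.02e-07).

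The change in Stage C against Stage B differed in 'Peter Stuyvesant' from the mean of the other 6 cultivars for 10 named unigenes, by edgeR's quasi-likelihood test. More positive were MYB106 (Cluster-20417.259204, adjusted p = 2.17e-06), MYBS3 (Cluster-20417.247843, 3.64e-06), MYB16 (Cluster-20417.185458, 0.000182), MYB17 (Cluster-20417.169143, 0.0025), MYB60 (Cluster-20417.221073, 0.00321), MYB12 (Cluster-20417.243451, 0.00553) and 340 (Cluster-20417.235651, 0.0442). More negative were MYB2 (Cluster-20417.135844, 0.0204), MYB113 (Cluster-20417.182475, 0.0353) and MYB62 (Cluster-20417.288966, 0.0473).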

How the results depend on the processing

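No called value of a single unigene changed sign under any alternative. The balance of higher and lower members did turn, to 34 and 54 with limma on log2(FPKM + 0.1) in Stage A against Stage B (46 and 38 as reported), to 32 and 44 in Stage C against Stage B (40 and 30) and to 6 and 11 in 'Gipsy Queen' (10 and 7). It also turned with median-ratio size factors in Stage A against Stage B (41 and 43), with limma on log2(FPKM + 1) in Stage A against Stage B (23 and 48), Stage C against Stage B (27 and 35) and 'Gipsy Queen' (1 and 6), and with DESeq2 in Stage A against Stage B (42 and 43) and 'Gipsy Queen' (11 and 12). The near-even splits of 'Delft Blue', 'Pink Pearl' and 'Peter Stuyvesant' also tipped under limma, DESeq2 or without replicate 1. The cause of each change in a count was not tested unless the setting itself gives it. Of the counts of members called, 228 stayed within 1.5 times the value reported and 53 did not. Of the values of single unigenes, 2162 kept their side of the threshold, 49 lost a call and 56 gained one.

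Limma on log2(FPKM + 1), where the added 1 shrinks the fold changes of low unigenes, called fewer members. It gave 18 in Stage A against Stage C, 11 in 'Jan Bos', 8 in 'Pink Pearl', 7 in 'Gipsy Queen', 18 in 'City of Haarlem', 8 in 'China Pink', 9 in 'Delft Blue' and 7 in 'Peter Stuyvesant'. For the tube it gave 6, 15 and 14 at Stages B, C and A, and for outer against inner lobes 0 at Stage B and 0 at Stage C. Without a threshold on the fold change there were 77 in Stage A against Stage C, 53 in 'Jan Bos', 55 in 'Pink Pearl', 49 in 'Gipsy Queen', 71 in 'City of Haarlem', 41 in 'China Pink', 32 in 'Delft Blue' and 50 in 'Peter Stuyvesant'. For the tube there were 56, 60 and 70, and for outer against inner lobes 10 at Stage B and 1 at Stage A.

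Taking members with a mean of at least 2 FPKM left 12 in 'Pink Pearl', 11 in 'Delft Blue', 10 for the tube at Stage B and 0 for outer against inner lobes at Stage B, and at least 0.5 FPKM gave 26 in 'Gipsy Queen' and 2 for outer against inner lobes at Stage B. The filterByExpr filter gave 10 for the tube at Stage B, 17 at Stage A and 1 for outer against inner lobes at Stage C. Limma on log2(FPKM + 0.1) gave 0 for outer against inner lobes at Stage B and 1 at Stage C. Between 'China Pink' and 'Delft Blue', DESeq2 called 6 members, libraries as replicates 4, limma on log2(FPKM + 0.1) 1 and no filter on low counts 1. Libraries as replicates, which treats partitions of a flower as independent, called 98 members in the test of cultivar by stage.

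Leaving out 1 replicate gave 68 to 73 members in Stage C against Stage B, 80 to 84 in Stage A against Stage B, 31 to 43 in Stage A against Stage C, 80 to 82 among cultivars, 30 to 39 for cultivar by stage and 10 to 22 for the 'Peter Stuyvesant' contrast of Stage C against Stage B. Single cultivars gave 19 to 26 ('Jan Bos'), 16 to 21 ('Pink Pearl'), 15 to 18 ('Gipsy Queen'), 29 to 36 ('City of Haarlem'), 13 to 17 ('China Pink'), 15 to 17 ('Delft Blue') and 19 to 22 ('Peter Stuyvesant'), and 0 to 1 between 'China Pink' and 'Delft Blue'. The tube gave 13 to 16, 26 to 33 and 25 to 28 at Stages B, C and A, and outer against inner lobes 1 to 1, 1 to 3 and 0 to 0. Leaving out only 'Gipsy Queen' Stage A replicate 2, chosen after seeing the data, gave 65 for cultivar by stage, 28 for the 'Peter Stuyvesant' contrast and 2 between 'China Pink' and 'Delft Blue'.

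Over all stages, replicate numbers did not meet the bar for pairing the flowers. Within Stage B, flowers of the same number in different cultivars deviated together on average (mean correlation 0.119, lowest -0.241, against -0.0595 for different numbers), and replicate 1 was the lowest flower in 6 of 7 cultivars for 7 unigenes of the MYB44 group. A block of number within stage was not fitted. With the replicate block 84 members were called in Stage A against Stage B, 71 in Stage C against Stage B, 36 in Stage A against Stage C, 62 for cultivar by stage and 25 in the 'Peter Stuyvesant' contrast. In the partition fits the block was the flower, and with no replicate block the tube gave 17, 28 and 24 members at Stages B, C and A, and outer against inner lobes 0, 1 and 0.

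With 3 flowers per group, a call in 1 cultivar at 1 stage rests on few flowers. A member had a median of 78 counts per flower, so low members are known less well. Several unigenes can come from 1 gene, and counts of unigenes are not counts of genes. Flowers of 1 cultivar share their genotype, and p-values cover the spread between these flowers only.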

Other observations

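At Stage A, flower 2 differed from the other flowers of its cultivar in several members in both 'Gipsy Queen' and 'Pink Pearl'. These values were looked up after the flower had been seen to stand apart. Over all unigenes, its mean correlation with its group was 0.893 in 'Gipsy Queen', where the other flowers had 0.906 and 0.934. In 'Pink Pearl' it was 0.947, against 0.956 for the other flowers. The 340 match (Cluster-20417.235651) had 106, 15.2 and 110 FPKM in flowers 1, 2 and 3 of 'Gipsy Queen' and 93.6, 8.76 and 63.4 FPKM in those of 'Pink Pearl'. MYB62 (Cluster-20417.288966) had 2.61, 25.7 and 5.53 FPKM in 'Gipsy Queen' and 3.55, 23.3 and 4.76 FPKM in 'Pink Pearl'. The 4 most abundant anthocyanin-type unigenes were at 0.138 to 0.200 times the mean of the other flowers in flower 2 of 'Gipsy Queen', and at 0.339 to 0.444 times in that of 'Pink Pearl'. The Myb-related protein 308 match (Cluster-20417.262296) was at 2.40 and 2.13 times that mean. Others went opposite ways in the cultivars. MYB12 (Cluster-20417.243451) was at 8.35 times in 'Gipsy Queen' and 0.606 times in 'Pink Pearl', and MYB2 (Cluster-20417.135844) at 1.25 and 0.522 times. The chlorophyll-binding sum was 2826, 10633 and 1109 FPKM in 'Gipsy Queen' and 3982, 10712 and 9535 FPKM in 'Pink Pearl'.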
